A study of Mus musculus with 6 samples.

Results

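The Notch pathway was followed in the aorta of young and aged mice through 10 genes, which encode the 4 receptors Notch1, Notch2, Notch3 and Notch4, the 3 ligands Jag1, Jag2 and Dll4, and the 3 target genes Hey1, Heyl and Hes1. They were taken by symbol from a table of 55335 genes, and all 10 passed the filter on low counts that left 16612 genes for testing. RNA was sequenced from whole aorta of wild-type C57BL/6 mice stated to be male, with 1 library per mouse. Of the mice, 3 were 6 weeks old (young) and 3 were 6 months old (aged). Young replicate 1 had the sex-linked RNA of a female, as given below. No agent or engineered allele was used, and the fat around the vessel had been dissected away before freezing. The comparison of the groups asks how gene expression in the aorta differs with age, and the older group stands at 6 months.

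Notch receptors are membrane proteins that bind a Jagged or Delta-like ligand on a neighbouring cell and are then cut, first by ADAM proteases and then by gamma-secretase. The released intracellular domain moves to the nucleus, joins the DNA-binding protein RBPJ and switches on target genes, of which the Hes and Hey repressors are the best known. In arteries, Notch1, Notch4 and Dll4 are known mainly from endothelial cells, Notch3 from smooth muscle cells and pericytes, and Jag1 from both layers.

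The receptors are shown first by their promoters. Across the libraries Notch1 and Notch4 followed each other, as did Notch2 and Notch3, and a link of this to promoter sequence was not tested. Promoter sequences from RefSeq on GRCm38.p6 were matched for 7 of the 10 genes, and none was matched for Hey1, Heyl or Hes1. Each sequence below runs 5′ to 3′ on the strand of its gene, from 250 to 31 bases before the RefSeq start, and the capitals mark a GC box (GGGCGG) or an E-box (CANNTG) read on either strand. The Notch1 window is chr2:26503853-26504072 (minus strand), which lies between exons inside the longer GENCODE gene, the Notch2 window is chr3:98013288-98013507 (plus strand), the Notch3 window is chr17:32166921-32167140 (minus strand) and the Notch4 window is chr17:34564045-34564264 (plus strand). The windows of Notch2, Notch3 and Notch4 lie upstream of their genes. The Jag1 and Jag2 windows, not printed here, overlap annotated exons, and the Jag2 window lies inside the GENCODE gene.
Notch1: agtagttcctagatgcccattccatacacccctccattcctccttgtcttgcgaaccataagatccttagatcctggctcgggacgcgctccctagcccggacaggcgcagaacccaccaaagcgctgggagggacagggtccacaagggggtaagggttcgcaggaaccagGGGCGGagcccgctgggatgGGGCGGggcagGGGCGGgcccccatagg
Notch2: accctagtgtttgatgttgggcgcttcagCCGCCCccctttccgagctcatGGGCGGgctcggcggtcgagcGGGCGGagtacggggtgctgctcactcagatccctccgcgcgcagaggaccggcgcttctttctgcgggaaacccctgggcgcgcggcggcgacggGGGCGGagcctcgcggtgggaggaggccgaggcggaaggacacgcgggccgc
Notch3: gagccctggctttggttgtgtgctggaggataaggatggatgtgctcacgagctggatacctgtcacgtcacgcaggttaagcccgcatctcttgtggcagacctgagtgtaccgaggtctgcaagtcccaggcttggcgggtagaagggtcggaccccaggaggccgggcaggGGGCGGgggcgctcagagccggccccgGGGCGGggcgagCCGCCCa
Notch4: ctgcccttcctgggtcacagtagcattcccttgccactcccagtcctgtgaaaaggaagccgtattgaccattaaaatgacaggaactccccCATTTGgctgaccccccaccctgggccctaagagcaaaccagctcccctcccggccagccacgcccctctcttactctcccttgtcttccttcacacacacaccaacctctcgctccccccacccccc

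The GC box was found in 3 of these 4 windows, with 3 copies in Notch1, 4 in Notch2 and 3 in Notch3, and in the Dll4 and Jag2 windows. It occurred in 28.5% of 32851 promoter windows of the same length. The Notch4 window held no GC box and had an E-box 158 bases before the start, a motif found in 62.1% of all windows and otherwise only in Jag1 among the 7 genes. The RBPJ core TGGGAA was searched on both strands and was in 0 of the 7 windows, against 19.4% of all windows. The TATA box TATAAA and the CArG box, which smooth muscle promoters often carry, were likewise in 0 of 7, against 9.95% and 1.30% of all windows. The GC content of the windows was 64.1% for Notch1, 72.7% for Notch2, 66.8% for Notch3 and 59.5% for Notch4, where the median of all windows was 51.8%.

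The libraries held between 31049632 and 45832185 counts on genes, and mitochondrial genes took 14.9% to 21.2% of them in young and 23.1% to 30.4% in aged aorta. Smooth muscle markers, led by Acta2, and endothelial markers, led by Pecam1, were detected in every library, so the label aorta matched its defining markers, and none of the 8 genes of either list was at 0. Several libraries stood apart. Young replicate 1 had Xist at 305.6 CPM (the read count of a gene divided by the TMM-normalized size of its library), against at most 0.636 CPM in the others, and Ddx3y at 1.09 CPM, against 44.8 to 65.6 CPM, although the mice are stated to be male. By these sex-linked genes it read as female. It also had the clock gene Arntl at 49.8 CPM, against 0.747 to 8.14 CPM elsewhere. All 5 of 5 cardiac and skeletal muscle markers were at their highest in it. Aged replicate 1 had 6 of 6 fibroblast and 6 of 6 macrophage markers at their highest, with median ratios of 3.0001 and 2.68 to the mean of the other libraries. Aged replicate 2 lay with the young libraries on the first principal component, and its 9 adipocyte markers summed to 4614 CPM. Aged replicate 3 had all 8 of 8 endothelial markers at their highest, with a sum of 1788 CPM against 384 to 540 CPM in the other 5 libraries. Pecam1 alone held 870 CPM of this sum. The rise was uneven, and Kdr was at 33.4 CPM against 9.41 to 29.2 CPM elsewhere. Also at their highest in this library were 3 of 4 lymphatic endothelial and 2 of 3 mesothelial markers. Where leaving out 1 library moved the log2 fold change of a Notch gene by over 1.5 times, the value or the range without it is given too. In bulk tissue, fewer cells of a type and less RNA per cell cannot be told apart.

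Across all genes, 0 of 16612 genes differed between aged and young aorta in edgeR's quasi-likelihood test (0.0% called after Benjamini-Hochberg adjustment), with a lowest adjusted p of 0.189, and 1723 genes (10.4%) had an unadjusted p below 0.05. None of the 10 Notch genes was called, and 2 of them, Notch2 and Notch3, had an unadjusted p below 0.05, both lower in aged aorta, where 4.82% of all genes were lower at that level. DESeq2 called 334 of 16565 genes (2.02%), among them 1 Notch gene, Notch3. Without aged replicate 2, edgeR called 110 of 17147 genes (0.642%) and 0 Notch genes, whose lowest adjusted p was then 0.198 in edgeR. The groups did not overlap in CPM for 3 of the 10 genes, against 16.5% of all genes tested. Aged aorta was lower for Notch2 and Notch3 (8.78% of all genes were lower without overlap) and higher for Notch4 (7.74% were higher). The median log2 fold change was -0.19 over the 10 genes and 0.02 over all genes.

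**Figure D1:**
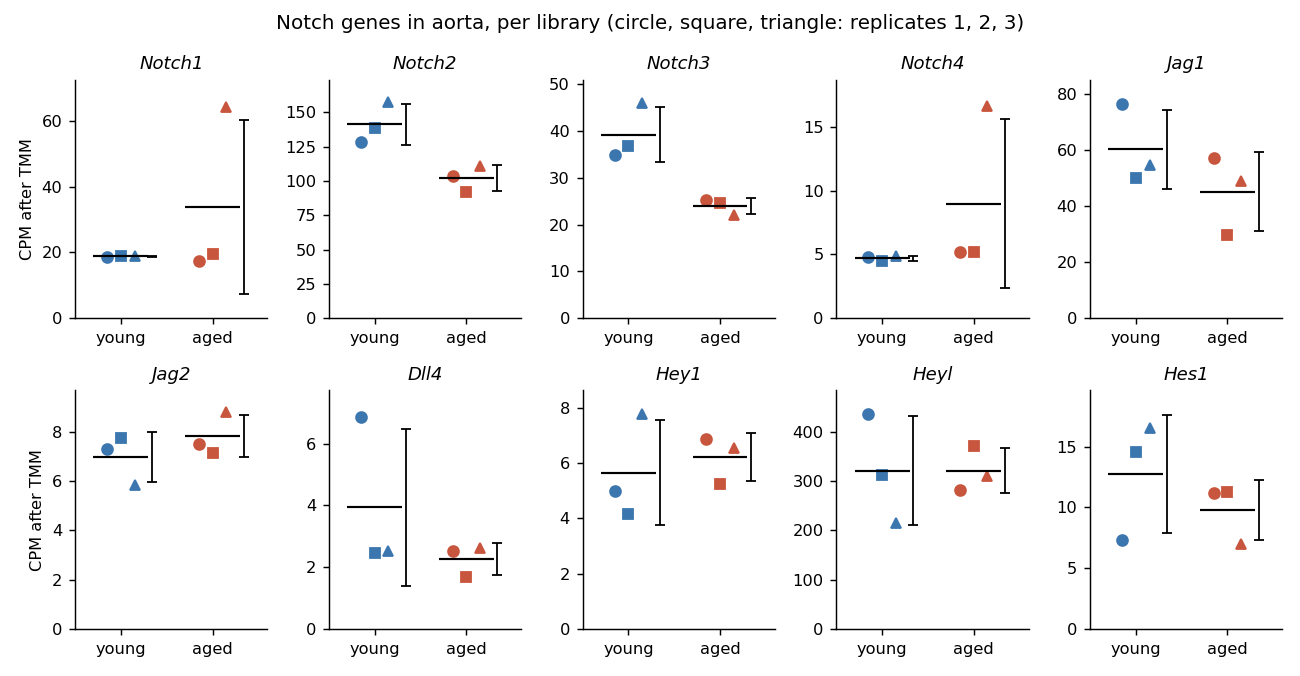
CPM of the 10 Notch genes in each library (y axis, from 0), with young libraries in blue and aged libraries in red, circles, squares and triangles for replicates 1, 2 and 3, a line at the group mean and a bar of ± 1 SD (n = 3). Notch2 and Notch3 are lower in each aged library than in any young library, and for Notch1 and Notch4 the triangle of aged replicate 3, at 64.3 and 16.6 CPM, stands above all other points.

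Notch3, the receptor of smooth muscle cells and pericytes, was lower in aged aorta in every library. The gene (ENSMUSG00000038146) lies on the minus strand at chr17:32120820-32166852 of GRCm38. Its level was 34.9, 36.8 and 45.9 CPM in young replicates 1, 2 and 3, and 25.2, 24.7 and 22.1 CPM in aged replicates 1, 2 and 3. The lowest young library thus stood above the highest aged library, and the aged values were close together. The group means were 39.2 ± 5.91 CPM (SD, n = 3) and 24.0 ± 1.64 CPM (SD, n = 3), a ratio of 0.612. In edgeR the log2 fold change was -0.71 with a standard error of 0.16, an unadjusted p of 0.00318 and an adjusted p of 0.372 (edgeR's quasi-likelihood test). DESeq2 gave an adjusted p of 0.0406 at a log2 fold change of -0.70, so the call depends on the tool. The unadjusted p was below 0.05 in 15 of 15 alternative settings, with log2 fold changes between -0.89 and -0.57. An antisense gene that overlaps its exons, Gm17276, had 3 to 9 counts per library beside 625 to 1691 for Notch3. Whether the counting used strand is not given, so reads of a gene and its antisense partner cannot be told apart.

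Notch2, which is closely related to Notch1 and is expressed in smooth muscle and many other cells, followed the same course. The gene (ENSMUSG00000027878) is on the plus strand at chr3:98013527-98150361. It was at 128, 139 and 157 CPM in young replicates 1, 2 and 3, and at 103, 91.9 and 111 CPM in aged replicates 1, 2 and 3. The groups did not overlap, with means of 141 ± 14.9 CPM (SD, n = 3) and 102 ± 9.43 CPM (SD, n = 3). For Notch2 the log2 fold change was -0.47 with a standard error of 0.16 (edgeR, unadjusted p of 0.0185, adjusted p of 0.405). It lay between -0.69 and -0.38 in 15 alternative settings and had an unadjusted p below 0.05 in 14 of them, the exception being the fit without young replicate 3 (edgeR, unadjusted p of 0.0776). Leaving out young replicate 1 gave -0.53 for Notch2 and -0.78 for Notch3, and leaving out aged replicate 2 gave -0.40 and -0.73. Gm42820, which overlaps exons of Notch2 on the same strand, had 3 to 28 counts beside 3125 to 6204 for Notch2.

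Smooth muscle, macrophage and fibroblast markers differed between the same groups or libraries. Of the 8 smooth muscle markers, 2 were lower in aged aorta without overlap and 0 higher, and the list summed to between 33329 and 41684 CPM in young and between 28902 and 34225 CPM in aged libraries. The groups overlapped in this sum. The mean log2 CPM of the list in young aorta, 10.8 ± 0.20 (SD, n = 3), exceeded that in aged aorta, 10.4 ± 0.052 (SD, n = 3), without overlap. For the 6 pericyte markers, led by Rgs5, this mean was 5.19 ± 0.34 in young and 5.62 ± 0.57 in aged aorta (SD, n = 3), and the groups overlapped. Of these pericyte markers, 1 was higher in aged aorta without overlap and 0 lower. Of the 6 macrophage markers, 4 were higher in aged aorta without overlap, and the list summed to 85.6 to 112 CPM in young and 116 to 369 CPM in aged libraries, with no marker at 0 throughout. The 6 fibroblast markers summed to 949 to 1409 CPM in young libraries, and to 4855, 956 and 3673 CPM in aged replicates 1, 2 and 3. Their log2 fold changes were between 1.31 and 1.599, of which 5 of 6 had an unadjusted p below 0.05 in edgeR, but the groups overlapped for 5 of 6 because aged replicate 2 lay within or below the young range. Against the mean of the fibroblast markers, Notch2, Notch3, Jag1 and Dll4 were lower in aged aorta without overlap, by -1.65, -1.88, -1.63 and -1.82 on the log2 scale, where the median of all genes was -1.17 and 13.2% of all genes were lower without overlap. The part of these cells in the levels of Notch2 and Notch3 was not tested beyond such ratios to markers.

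Notch1, the receptor best known from arterial endothelium, was level in 5 libraries and high in the sixth. The gene (ENSMUSG00000026923) is on the minus strand at chr2:26457903-26516663. It was at 18.8, 18.9 and 18.8 CPM in young replicates 1, 2 and 3, and at 17.4, 19.5 and 64.3 CPM in aged replicates 1, 2 and 3. Aged replicate 3 was 3.49 times the mean of the other aged libraries, and the groups overlapped. Its log2 fold change of 0.84 (standard error 0.49, edgeR adjusted p of 0.578) turned to -0.027 without aged replicate 3 (edgeR, unadjusted p of 0.888). The antisense genes Gm13568 and 0610009E02Rik, which overlap exons of Notch1, had 0 to 3 and 14 to 38 counts beside 577 to 1818 for Notch1.

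Notch4, a receptor largely restricted to endothelial cells, had the same shape at a lower level. The gene (ENSMUSG00000015468) is on the plus strand at chr17:34564268-34588503. It was at 4.77, 4.48 and 4.87 CPM in young replicates 1, 2 and 3, and at 5.21, 5.17 and 16.6 CPM in aged replicates 1, 2 and 3. Each aged library was above each young one, but in aged replicates 1 and 2 only by a small margin, and aged replicate 3 was 3.20 times the mean of the other aged libraries. Notch4 had a log2 fold change of 0.93 (standard error 0.48, edgeR adjusted p of 0.543) with all libraries and 0.14 without aged replicate 3. Genes at least 2-fold higher in aged replicate 3 than in every other library numbered 252 of those tested, or 1.52%, and included Notch1 and Notch4 among the 10 genes. In that library the 8 endothelial markers had a median ratio of 3.37 to the mean of the other 5 libraries, and the same ratio was 3.45 for Notch1 and 3.39 for Notch4.

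Of the ligands, Jag1 had the highest FPKM, and the groups overlapped in CPM for all 3. Jag1 (ENSMUSG00000027276, chr2:137081456-137116644, minus strand) was at 76.5, 50.1 and 54.5 CPM in young replicates 1, 2 and 3, and at 57.1, 29.7 and 48.8 CPM in aged replicates 1, 2 and 3. The groups overlapped, and the extremes were young replicate 1 and aged replicate 2, which are among the libraries that stood apart. The log2 fold change of -0.42 (standard error 0.28, edgeR adjusted p of 0.625) was -0.20 without the first, -0.19 without the second and 0.021 without both.

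Dll4, the Delta-like ligand of arterial endothelium, was highest in young replicate 1. The gene (ENSMUSG00000027314, chr2:119325784-119335962, plus strand) was at 6.87, 2.44 and 2.51 CPM in young replicates 1, 2 and 3, and at 2.53, 1.67 and 2.62 CPM in aged replicates 1, 2 and 3. Young replicate 1 was 2.78 times the mean of the other young libraries, and those lay within the aged range. Only 81 genes, or 0.488% of those tested, were at least 2-fold higher in young replicate 1 than in every other library. For Dll4 the log2 fold change of -0.80 (standard error 0.48, edgeR adjusted p of 0.591) was -0.12 without young replicate 1. The antisense gene Gm14207, which overlaps exons of Dll4, had 18 counts in young replicate 1, 7 in aged replicate 3 and 0 in the others, beside 63 to 333 counts for Dll4. In aged replicate 3, where the endothelial markers were highest, Dll4 was at 2.62 CPM and did not stand out.

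Jag2 varied least of the 10 genes. The gene (ENSMUSG00000002799, chr12:112907819-112929776, minus strand) was at 7.31, 7.76 and 5.83 CPM in young replicates 1, 2 and 3, and at 7.52, 7.16 and 8.81 CPM in aged replicates 1, 2 and 3. The groups overlapped, with a log2 fold change of 0.17 and a standard error of 0.22 (edgeR adjusted p of 0.804), which lay between 0.064 and 0.26 when each library was left out in turn.

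Among the target genes, Heyl had the highest FPKM, and its mean CPM was nearly equal in young and aged aorta. Heyl (ENSMUSG00000032744, chr4:123233556-123249875, plus strand), a Hey-family repressor found in vascular smooth muscle, was at 436, 311 and 215 CPM in young replicates 1, 2 and 3, and at 281, 370 and 311 CPM in aged replicates 1, 2 and 3. All aged values lay inside the young range, and the means were 321 ± 111 CPM (SD, n = 3) and 320.5 ± 45.5 CPM (SD, n = 3). The log2 fold change was -0.0014 with a standard error of 0.27 (edgeR adjusted p of 0.999), and it lay between -0.21 and 0.29 when each library was left out in turn.

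Hes1, a repressor that many cell types use downstream of Notch, was low in young replicate 1 and aged replicate 3. The gene (ENSMUSG00000022528, chr16:30064384-30067796, plus strand) was at 7.29, 14.5 and 16.5 CPM in young replicates 1, 2 and 3, and at 11.2, 11.3 and 6.97 CPM in aged replicates 1, 2 and 3. The groups overlapped. Hes1 had a log2 fold change of -0.38 with a standard error of 0.35 (edgeR adjusted p of 0.717), which was -0.65 without young replicate 1, -0.18 without aged replicate 3 and -0.14 without young replicate 3.

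Hey1, the Hey-family repressor of arterial endothelium, had no clear order of the groups. The gene (ENSMUSG00000040289, chr3:8663359-8667256, minus strand) was at 4.995, 4.17 and 7.78 CPM in young replicates 1, 2 and 3, and at 6.86, 5.22 and 6.55 CPM in aged replicates 1, 2 and 3. All aged values fell inside the young range, and the log2 fold change was 0.14 with a standard error of 0.30 (edgeR adjusted p of 0.888). It lay between -0.032 and 0.45 when each library was left out in turn.

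**Figure D2:**
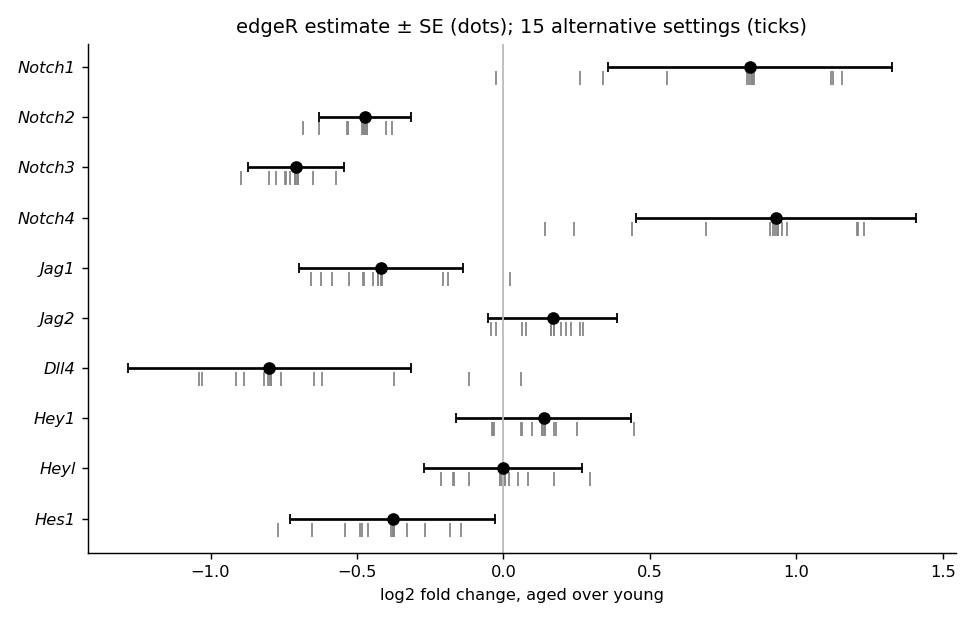
Log2 fold change of aged over young aorta for the 10 Notch genes (x axis), with black dots for the edgeR estimate, bars of ± 1 standard error and grey ticks for 15 alternative settings. The ticks of Notch2, Notch3 and Hes1 all lie below 0 and those of Notch4 all above 0, while those of Notch1 reach -0.027 and those of Dll4 reach 0.061.

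Levels of different genes were compared as FPKM, which takes gene length into account. Averaged over the 6 libraries, Heyl came first at 56.6 FPKM, followed by Notch2 at 10.4, Jag1 at 8.29, Hes1 at 5.09 and Notch3 at 3.62 FPKM. Hey1 was at 1.63, Notch1 at 1.62, Jag2 at 0.949, and Notch4 and Dll4 each at 0.737 FPKM. Heyl stood above 96.5% of the genes tested by mean FPKM, and Dll4 above 24.6%. The coefficient of variation of FPKM over the 6 libraries ran from 10.1% for Jag2 to 64.9% for Dll4.

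Within each library, Heyl exceeded Notch2, Notch3 exceeded Hey1, and Notch1 exceeded Jag2 in 6 of 6 libraries, by 2.45 ± 0.54, 1.06 ± 0.52 and 0.58 ± 0.59 (SD, n = 6) on the log2(FPKM + 0.1) scale. These are differences of levels, and each reached the smallest p of an exact two-sided sign-flip permutation test over 6 libraries, 0.0313. After adjustment over the 9 neighbouring pairs none passed 0.05, and the lowest adjusted p of the exact test was 0.0938. Jag1 over Hes1, Hes1 over Notch3 and Jag2 over Notch4 held in 5 of 6 libraries, and Notch2 over Jag1 and Hey1 over Notch1 in 4 of 6. Notch4 exceeded Dll4 in 2 of 6, so their equal means hide an order that changed between libraries.

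The make-up of the receptor class was separate between the groups for 3 of the 4 receptors. As a share of the summed receptor FPKM, which does not depend on library scaling, Notch3 held 23.9%, 23.6% and 25.6% in young replicates 1, 2 and 3, and 21.4%, 22.5% and 14.0% in aged replicates 1, 2 and 3. Notch1 held 7.26%, 6.86% and 5.92% of receptor FPKM in young, and 8.36%, 10.1% and 23.1% in aged replicates. Notch4 held 3.24%, 2.85% and 2.66% in young, and 4.38%, 4.66% and 10.5% in aged replicates. For these 3 receptors the groups did not overlap, with Notch3 lower and Notch1 and Notch4 higher in aged aorta. Notch2 held most of the receptor FPKM in every library, between 65.6% and 66.7% in young and between 52.5% and 65.8% in aged aorta, and its groups overlapped. Of 10 shares compared within the receptors, ligands and targets, these 3 were separate, each at an exact two-sided permutation p of 0.1. Groups of this size separate that often by chance, and no lower p is possible. Adjusted over the 10 shares, the exact permutation p was 0.333 for each of the 3. The receptor shares of a library add up to the whole, so a rise of some lowers the rest. The 3 results are therefore not independent of each other. Without aged replicate 3, Notch1, Notch3 and Notch4 were again the 3 shares without overlap.

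**Figure D3:**
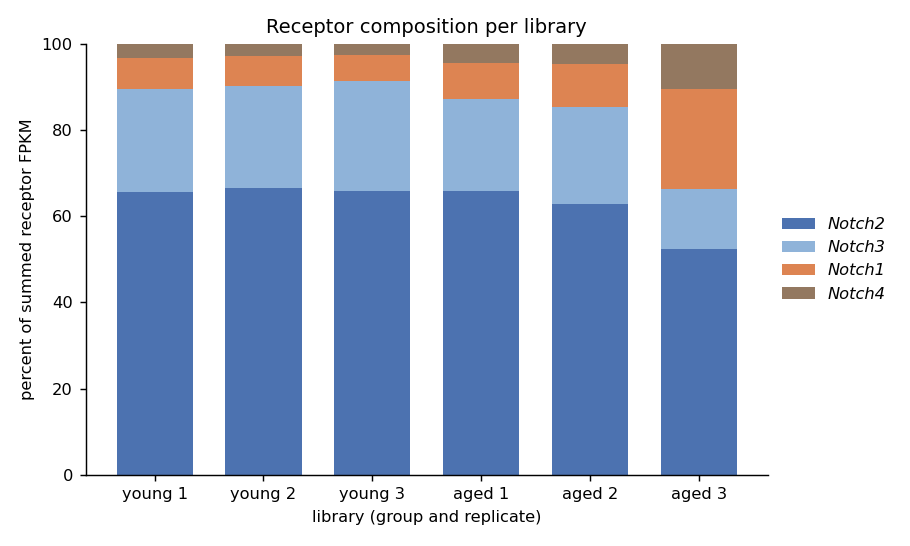
Share of each Notch receptor in the summed receptor FPKM of each library (y axis, percent, stacked to 100), for young replicates 1 to 3 and aged replicates 1 to 3. Notch2 takes 52.5% to 66.7% in all libraries, and the upper blocks of Notch1 and Notch4 are larger in the aged libraries, reaching 23.1% and 10.5% in aged replicate 3.

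Jag1 held 84.0% ± 2.15 (SD, n = 3) of the young and 81.4% ± 3.67 (SD, n = 3) of the aged ligand FPKM, and Heyl held 87.4% ± 7.18 (SD, n = 3) and 90.3% ± 2.10 (SD, n = 3) of the target FPKM. The groups overlapped for all 6 ligand and target shares. Summed receptor FPKM was 17.2, 18.9 and 22.2 in young replicates 1, 2 and 3, and 12.4, 11.6 and 15.8 in aged replicates 1, 2 and 3. Summed ligand FPKM was 15.2, 10.1 and 10.8 in young, and 9.82, 5.60 and 8.32 in aged replicates. Both sums were lower in aged aorta without overlap on the scale of the authors' FPKM. With the same FPKM rescaled by TMM, the receptor and ligand sums overlapped, so the lower sums depend on how libraries are scaled.

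Because the receptors belong to different layers of the vessel wall, each Notch gene was also set against markers of those layers within the same library. The measure is the log2 CPM of the gene minus the mean log2 CPM of 8 endothelial or 8 smooth muscle markers. Against endothelial markers, Notch1 stayed between -1.27 and -0.77 and Notch4 between -3.24 and -2.72, ranges of 0.50 and 0.52, where their own log2 CPM spanned 1.89 each. Aged replicate 3, at -0.89 for Notch1 and -2.85 for Notch4, lay inside the range of the other libraries. The groups overlapped for both, with aged minus young differences of 0.10 and 0.23 on the log2 scale.

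The other 8 Notch genes had their lowest value against endothelial markers in aged replicate 3. The mean log2 CPM of these markers was itself highest there, at 6.90 against at most 5.498 in the other libraries. A gene without a similar rise therefore tends to be lowest in that library, so this count does not set the 8 genes apart. The share of all genes lowest there was not counted. The median aged minus young difference of all genes tested was -0.46 on this measure. For Dll4, whose protein is a ligand of the same endothelial layer, the values were -2.71, -3.97 and -3.67 in young replicates 1, 2 and 3, and -3.79, -4.40 and -5.51 in aged replicates 1, 2 and 3. Hey1, known as a target in endothelium, stood at -4.19 in aged replicate 3, where the other libraries held -3.21 to -2.04. Dll4 and Hey1 thus did not rise with these markers in aged replicate 3 as Notch1 and Notch4 did.

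Against smooth muscle markers, Notch2 stayed between -3.88 and -3.63, a range of 0.26 where its own log2 CPM spanned 0.78. Its groups overlapped and differed by -0.058, which is less than the SD of 0.14 between the aged libraries. Notch3 was at -5.50, -5.56 and -5.51 in young replicates 1, 2 and 3, and at -5.68, -5.78 and -5.97 in aged replicates 1, 2 and 3. It remained lower in aged aorta without overlap, by -0.29 on the log2 scale, at the smallest exact permutation p of 0.1. Notch1, Notch4, Jag2 and Hey1 were higher in aged aorta on this measure without overlap, by 0.98, 1.11, 0.59 and 0.59, with the same exact permutation p of 0.1. Adjusted over the 20 differences against both marker lists, the exact permutation p was 0.333 for Notch3 and for each of these 4 genes. Without aged replicate 3 the differences of Notch1 and Notch4 were 0.40 and 0.58. The mean log2 CPM of the smooth muscle markers was itself lower in aged aorta. The markers weigh equally in this mean, and their log2 fold changes ran from -1.10 to -0.015 (edgeR), with Acta2 at -0.19. Accordingly, the median of all genes tested was higher by 0.43 on this measure. Without overlap were 30.1% of all genes, against 5 of the 10 Notch genes. Of all genes, 28.8% were higher without overlap, as 4 Notch genes were, and 1.29% were lower, as Notch3 was. Against endothelial markers Notch3 was the 1 gene of the 10 without overlap, lower in aged aorta as were 4.7% of all genes, with 5.63% of all genes without overlap in either direction.

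**Figure D4:**
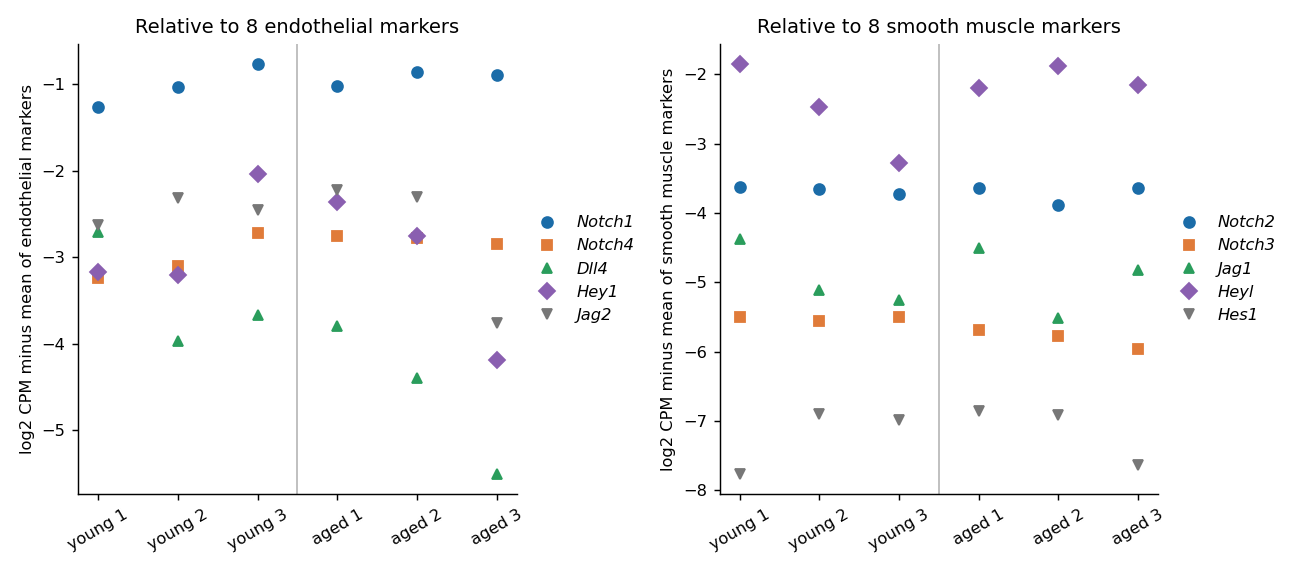
Log2 CPM of Notch genes minus the mean log2 CPM of 8 endothelial markers (left) or 8 smooth muscle markers (right), per library (x axis), with a grey line between young and aged. Notch1 and Notch4 keep within 0.50 and 0.52 of log2 on the left while Dll4 reaches -5.51 in aged replicate 3, and Notch2 keeps within 0.26 on the right.

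The genes also differed in how alike their course over the 6 libraries was. By the root mean square difference of centred log2 CPM, Notch1 and Notch4 were the closest of the 45 pairs at 0.10, followed by Notch2 and Notch3 at 0.17 and Jag2 and Heyl at 0.28. Notch1 and Hes1 were the farthest at 1.01. Among 14006 genes averaging 1 CPM or more, those most like Notch1 were Cd93 and Samd12 (each 0.14), and those most like Notch4 were Rasip1 (0.12) and Samd12 (0.14). Cd93 and Rasip1 are known from endothelial cells. For Cd93 the aged replicates 1, 2 and 3 were at 27.9, 28.8 and 124 CPM, the same shape as Notch1.

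The genes most like Notch3 were Tpm1 (0.066) and Tspan2 (0.068), of which Tpm1 encodes a tropomyosin of contractile filaments. Tpm1 was at 949, 1092 and 1275 CPM in young replicates 1, 2 and 3, and at 742, 768 and 659 CPM in aged replicates 1, 2 and 3. Those most like Notch2 were Schip1 (0.051) and Cc2d1a (0.053), and those most like Dll4 were Socs1 (0.15) and Fam84a (0.18). Fam84a, like Dll4, was highest in young replicate 1, at 45.4 CPM against 11.4 to 20.5 CPM elsewhere. For the remaining genes, the nearest were Tspyl3 and Zscan20 (Jag1), Crk and Gm14410 (Jag2), Tmem206 and Srr (Hey1), Tmem177 and Gm5069 (Heyl), and Shank1 and a gene without a symbol (Hes1), at 0.043 to 0.13. With 6 libraries these distances are descriptions of shape and carry no test.

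The rest of the pathway was read from a list of 74 other genes, of which 70 were tested. None was called by edgeR's quasi-likelihood test after adjustment. At an unadjusted p below 0.05 there were 2 higher and 2 lower in aged aorta, where 5.56% and 4.82% of all genes were. The groups did not overlap for 3 higher genes (Ccnd1, Dtx1 and Tle1) and 5 lower genes (Hey2, Efnb2, Pdgfrb, Rfng and Kat2a) of the 70, beside 7.74% and 8.78% of all genes. The median log2 fold change was 0.01.

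Of the 4 genes at an unadjusted p below 0.05, 3 were further targets. Ccnd1, which encodes cyclin D1 of the cell cycle, was at 8.61, 11.01 and 10.98 CPM in young replicates 1, 2 and 3, and at 49.3, 23.8 and 45.2 CPM in aged replicates 1, 2 and 3. All aged libraries were above all young ones, and aged replicate 2 was the lowest of them. Ccnd1 had a log2 fold change of 1.95 with a standard error of 0.29 (edgeR, unadjusted p of 0.000251, adjusted p of 0.259). Ccnd1 was called by DESeq2 (adjusted p of 1.75e-06) and by edgeR without aged replicate 2 (adjusted p of 0.0272). Many other pathways also control this gene.

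Hey2, the third Hey-family repressor and a gene of arterial smooth muscle, was lower in aged aorta. It was at 115, 77.8 and 84.5 CPM in young replicates 1, 2 and 3, and at 68.2, 54.5 and 43.5 CPM in aged replicates 1, 2 and 3, with no overlap. The log2 fold change of Hey2 was -0.74 with a standard error of 0.23 (edgeR, unadjusted p of 0.0141, adjusted p of 0.390). Hey2 thus differed in its course from Heyl and Hey1, whose groups overlapped, although the difference between these genes was not tested.

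Efnb2, which encodes the arterial ligand ephrin-B2, was at 78.5, 57.5 and 62.1 CPM in young replicates 1, 2 and 3, and at 38.2, 30.5 and 45.5 CPM in aged replicates 1, 2 and 3. The groups did not overlap, and the log2 fold change of Efnb2 was -0.79 with a standard error of 0.21 (edgeR, unadjusted p of 0.00573, adjusted p of 0.377). Dtx1, a ubiquitin ligase of the Deltex family that binds Notch, was between 4.08 and 6.36 CPM in young and between 7.47 and 10.6 CPM in aged libraries. Its log2 fold change was 0.65 (edgeR, unadjusted p of 0.0456, adjusted p of 0.472).

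In 7 of the 9 classes none of the tested genes had an unadjusted p below 0.05. The most abundant gene of each class is given by its mean FPKM over the 6 libraries. Mfap5, a microfibril protein that can bind Notch1, was the highest of the other ligands at 65.4 FPKM, and Kdelc2, a glycosyltransferase that modifies Notch, was at 17.2 FPKM. Epn1, an epsin of ligand endocytosis, was at 18.0 FPKM, the protease Adam10 at 7.03 FPKM, and the gamma-secretase subunit Psenen at 22.2 FPKM. In the nucleus, the acetyltransferase Kat2b was at 11.4 FPKM and the corepressor Hdac1 at 18.2 FPKM. Dtx3 led the inhibitors and turnover genes at 59.8 FPKM, and Pdgfrb, a receptor of smooth muscle and pericytes, led the other targets at 57.9 FPKM. The log2 fold changes of Mfap5, Kdelc2, Epn1, Adam10, Psenen, Kat2b and Hdac1 lay between -0.17 and 0.40, and those of Dtx3 and Pdgfrb were -0.42 and -0.43.

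**Figure D5:**
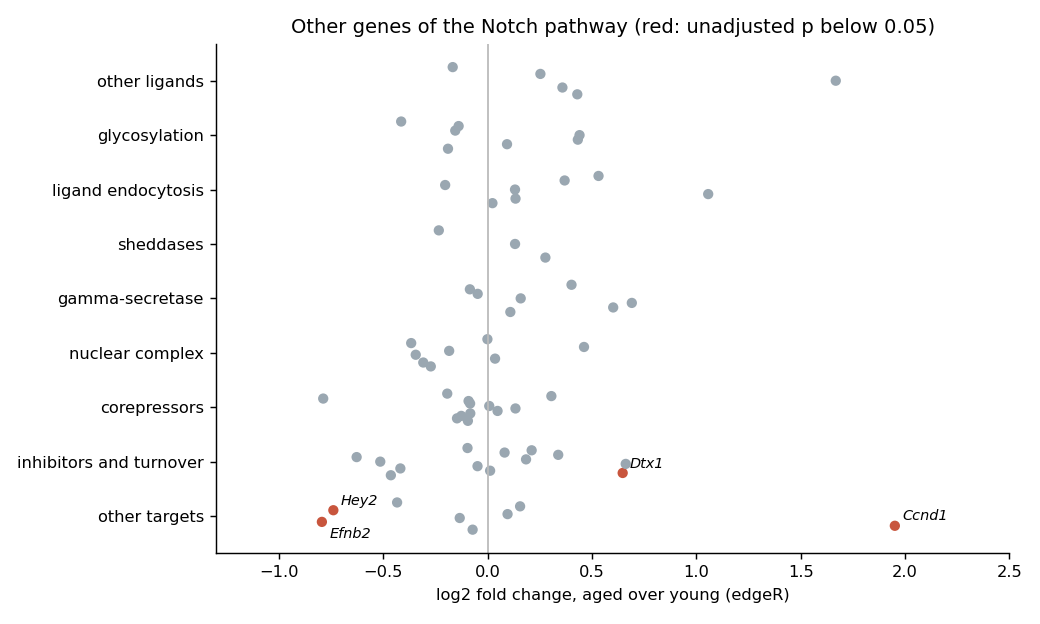
Log2 fold change of aged over young aorta (x axis, edgeR) for the 70 tested other genes of the Notch pathway, 1 point per gene, in rows by role. The 4 genes at an unadjusted p below 0.05 are red and named, with Ccnd1 at 1.95 and Dtx1 at 0.65 to the right and Hey2 at -0.74 and Efnb2 at -0.79 to the left.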

How the data were processed

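RNA from the aorta of 3 young and 3 aged mice was sequenced single-ended for 50 cycles. The authors deposited whole-number counts of reads per gene, without normalization, and FPKM, which divides the count by gene length and by sequencing depth. The submitters' processing notes name the build mm10, and the aligner, the counting tool and its use of strand are not given in the sources used here. Coordinates are those of GENCODE M21 on GRCm38, which holds 55154 of the gene identifiers. Groups follow the ages in the labels.

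Counts were analysed in R 4.3.3 with edgeR 4.0.16 (filterByExpr by group with a minimum count of 10 and a minimum total of 15, TMM, quasi-likelihood fit without covariates), and p values were adjusted across the 16612 tested genes (threshold 0.05). The fit was tested on simulated counts. CPM are TMM-scaled, and log2 CPM used a prior count of 0.5. Exact tests were two-sided (SciPy 1.17.1 in Python 3.11.15). Libraries held 31049632 to 45832185 counts, and counting error weighs most on Dll4, at 63 to 333 counts. Alternatives were RLE factors, 2 other count filters, mitochondrial genes removed, a block for the replicate number, omission of each library in turn, young replicate 1 and aged replicate 2 left out, DESeq2 1.42.0, log2 FPKM (pseudocount 1 or 0.1) in limma 3.58.1, and, for ratios and shares, CPM, a prior count of 2 and a fibroblast list. The TMM-scaled FPKM sums and their versions with each library left out were added after the data were seen.

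The 10 genes, the pathway list and the marker lists, written from general knowledge, were chosen with earlier results of these data known. Named are the 10 genes, in each pathway class the genes at an unadjusted p below 0.05 and the gene of highest FPKM, the 2 genes most like each of the 10, the most abundant marker of a list, and Xist, Ddx3y and Arntl. Tle1, Rfng, Kat2a and Kdr were named after their values were seen. Kdelc1 and Kdelc2 were matched through RefSeq synonyms of Poglut2 and Poglut3, and Dll3, Dlk2, Hes5 and Hes7 did not pass the filter.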

Additional observations from a re-analysis of the deposited data

How the results depend on the processing

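With 3 mice a group an exact permutation test cannot go below 0.1, and Dll4, Hey1, Notch4 and Jag2 rest on 63 to 469 counts per library. Young replicates 1 and 2 and all aged libraries stood apart in sex-linked or marker genes. The count of genes called was 0 with edgeR, 334 with DESeq2 and 0 to 110 when a library was left out, the 110 without aged replicate 2. Genes at an unadjusted p below 0.05 numbered 1723, against 2941 with limma on log2(FPKM + 1), 2766 without young replicate 1 and aged replicate 2, and 1061 (without young replicate 3) to 2359 when a library was left out. On FPKM in limma, the median over all genes was -0.12 and -0.19 (pseudocounts 1 and 0.1), against 0.02 on the log2 scale in edgeR. Of the 10 Notch genes, 1 was called with DESeq2 and 0 with each library left out, and 1 (without young replicate 3) to 4 (without aged replicate 1) had an unadjusted p below 0.05, against 2. Of the other pathway genes, 1 was called with DESeq2 and 0 to 1 with a library left out, namely Ccnd1 without aged replicate 2. At an unadjusted p below 0.05 there were 4, against 18 and 11 with limma (pseudocounts 1 and 0.1), 9 with DESeq2, 10 without young replicate 1 and aged replicate 2, and 3 (without aged replicate 3) to 10 (without young replicate 1) with a library left out. Shares without overlap numbered 3 to 6 with a library left out (6 without aged replicate 1), against 3, and 6 to 10 of the 10 genes kept their place in the order of FPKM (6 without aged replicate 2). The differences against markers without overlap numbered 6 to 9, against 6. The summed receptor FPKM differed by -3.59 with TMM scaling, against -6.16. The cause of these shifts was not tested.

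The log2 fold change changed sign for 6 genes. With limma (pseudocounts 1 and 0.1) Jag2 was at -0.025 and -0.044 and Hey1 at -0.034 and -0.039. Heyl, at -0.0014, was at 0.0064 with RLE factors and with DESeq2, 0.0031 with at least 10 counts in every library and 0.051 with the replicate block. With 1 library left out, or with young replicate 1 and aged replicate 2 both left out, Notch1 ranged from -0.027 (without aged replicate 3) to 1.16, Jag1 from -0.62 to 0.021 and Dll4 from -1.04 to 0.061 (both highest without young replicate 1 and aged replicate 2), Hey1 from -0.032 (without young replicate 2) to 0.45, and Heyl from -0.21 (without young replicate 3) to 0.29 (without young replicate 1). Of 150 alternative fold changes of the 10 genes, 133 kept direction and side of the threshold, 16 changed sign and 1, Notch3 with DESeq2, passed the threshold.

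The replicate numbers were used as a block in an added fit, where no gene passed (0 calls) and 1782 had an unadjusted p below 0.05, including 3 Notch genes (Notch2, Notch3 and Jag1) and 9 other pathway genes. Same-numbered libraries deviated together with correlations of 0.079, 0.117 and 0.096, not all above 0.1, so the numbers are not taken to pair the mice. Every library correlated best with its own number, which is a hint from the data and not from the design.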
